A study of Homo sapiens with 32 samples.

Results

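The 32 genes described here encode enzymes and regulators of cholesterol and fatty acid synthesis. They were taken by name as 17 enzymes of the sterol arm, 4 regulators and carriers of sterol, and 11 enzymes of the fatty acid arm, without a threshold on measured values. Of the 32, 31 were matched among the 57820 genes counted in HCT116 libraries and among the 11887 counted in HEK293 libraries. ACACA was not analysed here. Every one of the 31 passed the filter on low counts in each comparison, so none was lost to low expression.

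Gene counts were read from 26 RNA libraries of clonal lines derived from HCT116 (human colorectal carcinoma cells) and HEK293 (human embryonic kidney cells). All clones, controls included, descended from sorted cells that had received Cas9-GFP. The deletion clones had also received guides against one distal element, and the control clones the empty guide vector. In HCT116 the groups were 1 E7 deletion clone (days A, B and C of RNA extraction), 3 18qNE deletion clones (clones 1 and 3 on day A, clone 2 on day B), 2 18qE deletion clones (day D), and 4 control clones (days A, B and C, with clones 1 and 2 also on day D). In HEK293 there were 2 E7 deletion libraries and 2 control clones, all of day E. The E7 libraries of HEK293 carry the same clone label, so they may represent 1 clone. E7 is an element of 8q24, where MYC lies. The elements 18qE and 18qNE belong to 18q21, where SMAD7 lies. The labels give no dates for the days.

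Library totals ran from 9871667 to 14862268 gene counts on days A to C, from 22972412 to 24887785 on day D and from 26491576 to 34790193 in HEK293. Levels are given as CPM, the usual depth-scaled count. Differences are log2 changes from edgeR's quasi-likelihood test with a standard error (SE), and a gene is said to rise or fall where its p, adjusted over all genes tested, was under 0.05. P-values set a difference against the spread between these clones or libraries. For the single E7 clone of HCT116 that spread is known from its controls alone. In HCT116 the E7 libraries held 177, 162 and 216 CPM of MYC and the control libraries 387 to 482 CPM; in HEK293 the E7 libraries held 23.3 and 24.5 CPM and the controls 67.4 and 155.8 CPM. Epithelial markers (8 genes) summed to 4124 to 5622 CPM in the E7 libraries of HCT116 and to 3747 to 6313 CPM in the control libraries. Of 7 tested, 1 rose and 1 fell. CDH1 was at 44.8 to 53.6 CPM in E7 and at 51.3 to 114.2 CPM in controls. KRT19 was at 1076 to 1262 CPM in E7 and at 772 to 1064 CPM in controls. Markers of HEK293 (7 of 8 genes listed) summed to 65.3 to 81.5 CPM in those E7 libraries and to 118 to 151 CPM in the controls. They did not move one way: DPYSL3 (4.64 to 6.80 CPM in E7 and 69.3 to 89.4 CPM in controls) and GATA3 fell, VIM rose (18.1 to 26.0 CPM in E7 and 0.155 to 1.61 CPM in controls), and their part in the E7 results was not tested. In HEK293 (6 of 8 listed) they summed to 1177 to 1220 CPM in E7 and to 1076 to 1124 CPM in control libraries, with NEFM at 28.7 and 35.8 CPM in E7 and at 0.632 and 0.680 CPM in controls. Protein-coding mitochondrial genes took 4.32%, 4.08% and 3.64% of gene counts in the E7 libraries of HCT116 on days A, B and C, below the controls of each day (5.24% to 6.60%, 4.81% to 5.01% and 4.71% to 4.92%). Their part in the E7 results was not tested. Leukocyte, endothelial, and hepatocyte or adipocyte markers each summed to at most 2.15 CPM in every HCT116 library, and fibroblast markers to 10.7 to 30.2 CPM. In bulk RNA, fewer cells of a type and less RNA per cell cannot be told apart.

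Cholesterol is built from acetyl-CoA through HMG-CoA, mevalonate, isoprenoid diphosphates and squalene to lanosterol, which is trimmed and reduced to cholesterol. The genes of this route are switched on by SREBP-2, the product of SREBF2, a membrane-bound transcription factor that is released from the endoplasmic reticulum and cleaved when sterol is low. INSIG1 retains that factor when sterol is plentiful and is itself a target of it, which gives the route its feedback. Fatty acids are built from the same acetyl-CoA, with SREBP-1, the product of SREBF1, as a main activator. Proliferating epithelial cells in culture use both routes to make membrane.

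Promoter windows of RefSeq (GRCh38.p14, 250 bases before to 50 after the start of each gene) were matched for 29 of the 32 genes, and ACAT2, FDFT1 and FASN were not among them. Motifs were searched on both strands of the 250 bases before the start. CCAAT, the box bound by NF-Y, a usual partner of SREBP, was found in 12 of 15 sterol arm promoters, 3 of 4 regulator promoters and 4 of 10 fatty acid arm promoters, against 33.0% of 27305 promoters. TCACNCCAC, a form of the sterol regulatory element, was found in SREBF2 alone of the members and in 0.88% of all promoters. CACGTG, the E-box bound by SREBP-1 and by MYC, was found in 3 members and in 6.49% of all promoters. The windows below were chosen by name. SREBF2, INSIG1, STARD4, MSMO1 and HMGCS1 were picked from the 17 members that fell on day B against day A in the control clones. The first 4 fell on day C as well. The fatty acid desaturases FADS1 and FADS2 are shown as a neighbouring pair with no match, and both also fell on day B. IDI1 and ACSL1, not shown, fell on day B and had no match either. Whether a match went with a fall was not tested. Capitals mark matches to these motifs (ATTGG is CCAAT on the other strand), which are descriptions of the letters and not binding sites.
SREBF2, chr22:41832960-41833015, plus strand: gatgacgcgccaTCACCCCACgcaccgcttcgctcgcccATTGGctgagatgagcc
INSIG1, chr7:155297696-155297840, plus strand: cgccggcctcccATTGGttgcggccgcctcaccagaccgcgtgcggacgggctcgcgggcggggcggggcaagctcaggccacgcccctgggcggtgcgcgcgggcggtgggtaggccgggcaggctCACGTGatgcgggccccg
STARD4, chr5:111512649-111512708, minus strand: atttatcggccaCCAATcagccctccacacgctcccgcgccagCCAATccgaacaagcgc
MSMO1, chr4:165327472-165327651, plus strand: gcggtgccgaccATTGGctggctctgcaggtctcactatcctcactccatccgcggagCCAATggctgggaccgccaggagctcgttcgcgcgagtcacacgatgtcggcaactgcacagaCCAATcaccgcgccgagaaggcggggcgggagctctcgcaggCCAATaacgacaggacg
HMGCS1, chr5:43313496-43313579, minus strand: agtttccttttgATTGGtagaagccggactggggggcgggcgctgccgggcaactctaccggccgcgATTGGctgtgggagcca
FADS1, chr11:61817004-61817063, minus strand: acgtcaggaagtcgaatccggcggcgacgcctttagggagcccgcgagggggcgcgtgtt
FADS2, chr11:61816143-61816202, plus strand: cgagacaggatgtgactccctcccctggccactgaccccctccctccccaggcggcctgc
The starts of FADS1 and FADS2 lie 800 bases apart on opposite strands of chromosome 11, and the genes overlap there. Whether counting used the strand is not stated in the labels, so reads of this pair cannot be told apart where they overlap.

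The first comparison asked which of these genes differed in the E7 clone of HCT116. The fatty acid arm was lower: 4 of 10 members fell, none rose, and all 10 had a negative log2 change, with a median of -0.34 against -0.01 over all genes tested. No sterol arm member or regulator was called, although 15 of 17 sterol arm members were also negative, with a median of -0.24. Over all genes tested, 7.58% rose and 6.32% fell.

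ACSL1, which couples long-chain fatty acids to coenzyme A, was counted at 15.7, 15.9 and 14.9 CPM in E7 on days A, B and C, against 25.7, 35.4 and 45.7 CPM (lowest, median, highest) in the 12 control libraries. The highest E7 library lay below the lowest control library. The mean was 15.5 CPM ± 0.562 (SD, n = 3 libraries of 1 clone) in E7 and 35.2 CPM ± 5.56 (SD, n = 12 libraries of 4 clones) in controls, and ACSL1 fell by 1.17 (SE 0.12, edgeR adjusted p = 0.00112). ME1, the cytosolic malic enzyme that supplies NADPH to fatty acid synthesis, was at 86.2, 67.8 and 74.5 CPM in E7 and at 104, 121 and 137 CPM in controls. Here too the groups did not overlap, and ME1 fell by 0.65 (SE 0.11, edgeR adjusted p = 0.00822). The share of all genes without overlap between these E7 and control libraries was not counted.

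ELOVL6, the elongase that extends palmitate, was at 68.8, 53.2 and 54.0 CPM in E7 and at 67.4, 86.8 and 113.9 CPM in controls. One E7 library, that of day A, lay within the control range, and ELOVL6 fell by 0.59 (SE 0.16, edgeR adjusted p = 0.0483). FASN, the synthase that assembles palmitate, was at 1916, 1412 and 1539 CPM in E7 and at 1856, 2101 and 2459 CPM in controls. Its E7 library of day A also lay within the control range, and FASN fell by 0.37 (SE 0.08, edgeR adjusted p = 0.0251). SCD, the desaturase that makes oleate, was at 1390, 633 and 598 CPM in E7 and at 593, 882 and 1469 CPM in controls. It was high on day A and low on days B and C in E7, and its log2 change was -0.04.

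**Figure D1:**
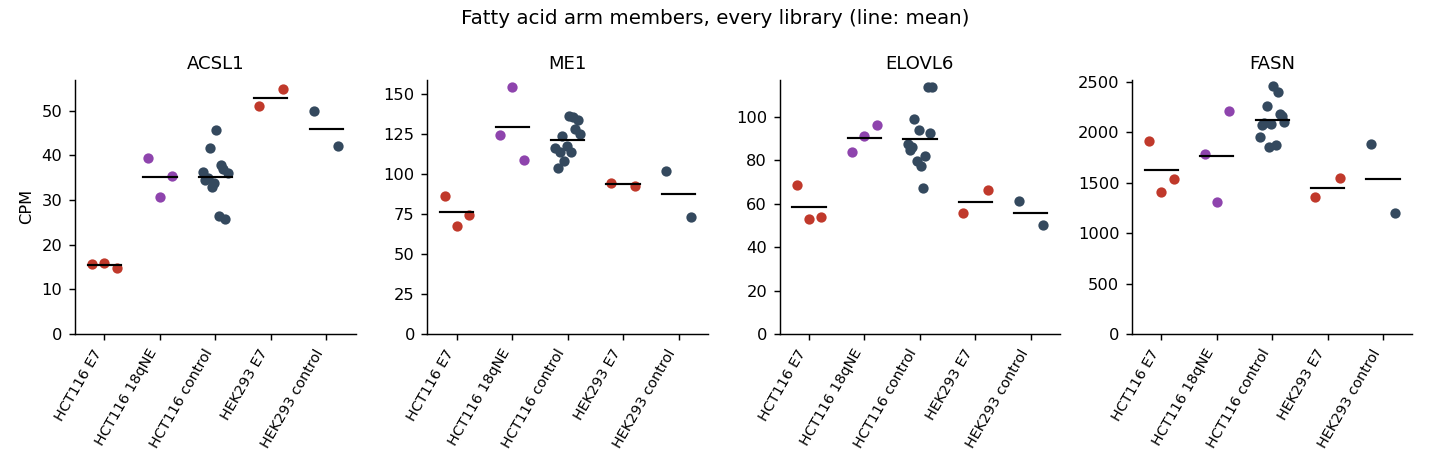
CPM of ACSL1, ME1, ELOVL6 and FASN in every library, one point per library with the group mean as a line, for HCT116 E7 (3 libraries), HCT116 18qNE (3), HCT116 control of days A to C (12), HEK293 E7 (2) and HEK293 control (2). ACSL1 lies at 14.9 to 15.9 CPM in the E7 libraries of HCT116 and at 51.0 and 54.9 CPM in those of HEK293, against 25.7 to 45.7 CPM and 42.0 and 49.9 CPM in the controls of each line.

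In the sterol arm, HMGCS1, the synthase that makes HMG-CoA, was at 76.2, 49.3 and 53.8 CPM in E7 and at 64.5, 84.5 and 125.5 CPM in controls. Its log2 change was -0.50 (SE 0.20, edgeR adjusted p = 0.142). FDFT1, squalene synthase, was at 160.1, 100.2 and 100.4 CPM in E7 and at 103, 176 and 238 CPM in controls, a log2 change of -0.45 (edgeR adjusted p = 0.237). IDI1, the isopentenyl diphosphate isomerase, was at 91.2, 60.2 and 61.1 CPM in E7 and at 69.1, 99.98 and 120.9 CPM in controls, a log2 change of -0.43 (edgeR adjusted p = 0.0521). In all 3 of these genes the E7 library of day A was the highest of the E7 libraries and lay within the control range over all days. TM7SF2, a sterol reductase, and PMVK, the phosphomevalonate kinase, were the positive ones, at 0.31 and 0.25. Of the regulators STARD4, which carries cholesterol between membranes, was at 0.12 and the other 3 were negative. With edgeR no sterol arm member or regulator passed, 4 sterol arm members and 0 regulators had an unadjusted p under 0.05, and DESeq2 called IDI1.

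Compared within days, E7 lay below all 4 control clones on every one of the 3 days for 9 members. They were HMGCS1, MVD, IDI1 and FDFT1 of the sterol arm and FASN, ME1, ELOVL5, ELOVL6 and ACSL1 of the fatty acid arm, and 13.3% of all genes tested did the same. The median log2 difference of E7 from the control mean of the same day was -0.10, -0.29 and -0.33 for the sterol arm on days A, B and C. For the fatty acid arm it was -0.20, -0.24 and -0.53.

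Without control clone 2, ELOVL6 and FASN did not pass (edgeR adjusted p = 0.108 and 0.0523) and 2 members remained called, where 8.59% of all genes were, and without control clone 1 ELOVL6 did not (adjusted p = 0.0897). With the 18qNE clones as the group set against E7, on days A and B, edgeR called no member and 0.521% of all genes: ACSL1 was at -1.15 (adjusted p = 0.168), ME1 at -0.75, ELOVL6 at -0.56 and FASN at -0.08.

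**Figure D2:**
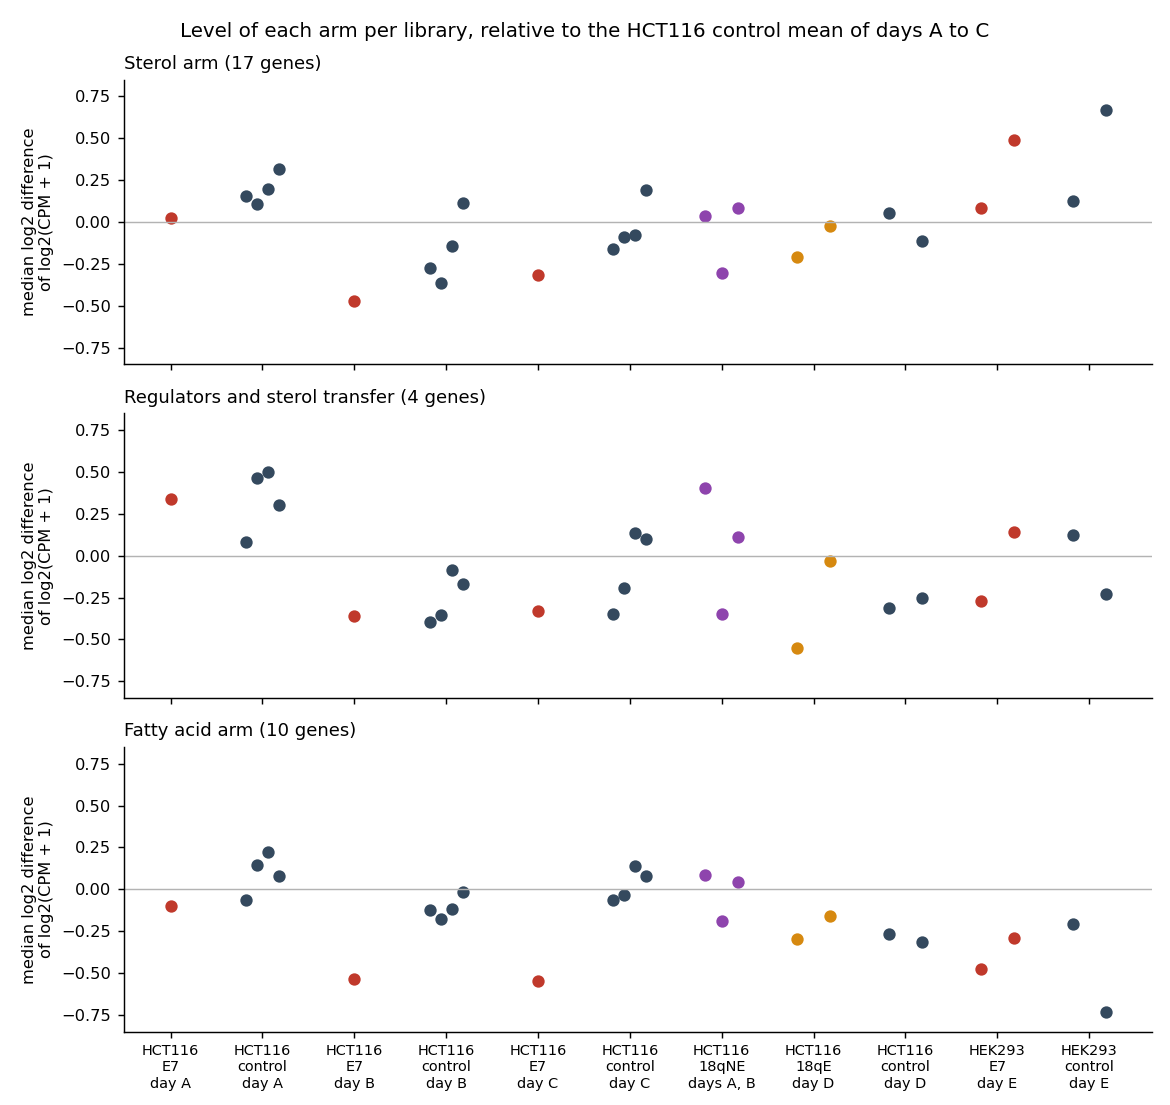
Median over the members of each arm of the log2 difference from the mean HCT116 control level of days A to C, on the log2(CPM + 1) scale, one point per library and one panel per arm, with groups along the horizontal axis. The E7 libraries of HCT116 on days B and C lie at -0.54 and -0.55 in the fatty acid arm, below every HCT116 control library, while the regulators lie at 0.08 to 0.50 in the control libraries of day A and at -0.40 to -0.09 in those of day B.

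Other genes of the same pathways were described by counts. Of 20 other tested genes of sterol synthesis, transport and regulation, 2 rose and 2 fell in E7: NPC2, which exports cholesterol from lysosomes (0.67), MYLIP, a ligase that degrades lipoprotein receptors (0.65), SQLE, squalene epoxidase (-1.35), and TMEM97, a regulator of cholesterol transport (-0.56). Of 25 other fatty acid genes, 2 rose (MLX, a partner of glucose-sensing transcription factors, 0.81, and PTPLA, 0.56) and 2 fell (ACSL6, -1.04, and CBR4, -0.44). Of 14 genes of fatty acid oxidation, 3 fell and none rose: DECR1 (-0.68), HADHA (-0.42) and ECI2 (-0.35). SQLE and DECR1 lie on chromosome 8, as E7 does.

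The 18qNE deletion clones did not separate from the control clones in either arm. With edgeR 0 of 31 members were called, 0 had an unadjusted p under 0.05, and DESeq2 called 0; of all genes tested, 0% were called. The median log2 change was -0.01 in the sterol arm, -0.03 among regulators and -0.02 in the fatty acid arm, and 12 members were positive and 19 negative. These clones were compared with the same 4 control clones as E7, summed over days A and B. Each 18qNE clone was a library of day A or of day B, and the fit had no term for day. Differences between days therefore enter its spread. The alternative with day as a term and that on day A alone also called 0 members.

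In each of the 4 members with the largest differences at least 1 18qNE library lay inside the control range. TM7SF2 was at 19.24, 7.6 and 11.63 CPM in 18qNE clones 1, 2 and 3, against 8.22 to 29.6 CPM in the 8 control libraries of days A and B (-0.60, SE 0.27, edgeR adjusted p = 1). SREBF1 was at 185, 202 and 199.6 CPM in the 18qNE clones and at 183 to 336 CPM in control libraries (-0.34). FASN was at 1782, 1310 and 2208 CPM in the 18qNE clones and at 1856 to 2459 CPM in control libraries (-0.24). ACAT2, the thiolase that joins acetyl-CoA units, was at 27.9, 27.9 and 40.8 CPM in the 18qNE clones and at 32.3 to 41.3 CPM in control libraries (-0.17).

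Within the 18qNE group, clone 2, the one of day B, was below both clones of day A in 22 of 31 members and above both in 4, while it was below both in 40% of 13391 genes with at least 10 counts in each of these libraries. It had 44.5 CPM of INSIG1 and 49.8 CPM of MSMO1, a methylsterol oxidase. Clones 1 and 3, of day A, had 106.7 and 93.6 CPM of INSIG1 and 100.1 and 75.9 CPM of MSMO1. HMGCS1, at 81.9 CPM in clone 2 and at 79.9 and 89.8 CPM in clones 1 and 3, lay between them, and ME1, at 154.8 CPM in clone 2 and at 124.4 and 109.1 CPM in clones 1 and 3, was above them. Day and clone cannot be told apart in these libraries.

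The 18qE deletion clones also showed no called member. With edgeR 0 of 31 passed, 1 (ELOVL6) had an unadjusted p under 0.05, and DESeq2 called 0; of all genes tested, 0% were called. Median log2 changes were -0.01 in the sterol arm, 0.06 among regulators and -0.01 in the fatty acid arm.

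LSS, lanosterol synthase, was at 41.4 and 51.5 CPM in 18qE clones and at 76.7 and 48.6 CPM in the controls of day D (-0.40, SE 0.23, edgeR adjusted p = 1). ELOVL6 was at 74.2 and 93.0 CPM in 18qE clones and at 71.0 and 59.8 CPM in controls (0.39, SE 0.16). Both 18qE libraries lay above both controls for ELOVL6, while for LSS control clone 2 lay between the 18qE clones. How many of all genes lay apart in this way was not counted. TM7SF2 was at 11.2 and 15.03 CPM in 18qE clones and at 20.7 and 12.6 CPM in controls (-0.31). IDI1 was at 71.2 and 92.5 CPM in 18qE clones and at 72.0 and 66.3 CPM in controls (0.27). INSIG1 differed more within the 18qE group, at 44.1 and 86.4 CPM, than within the controls, at 55.1 and 55.4 CPM.

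In HEK293 the arm with the lower median in E7 was the sterol arm. Its median log2 change was -0.35, with 14 of 17 members negative, against -0.03 in the fatty acid arm and -0.08 among regulators. With edgeR, however, 0 of 31 members passed, 6 had an unadjusted p under 0.05 (4 of the sterol arm and 2 of the fatty acid arm), and DESeq2 called 1, MVD. Of all genes tested, 0.0254% were called.

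MVD, the mevalonate diphosphate decarboxylase, was at 17.7 and 22.6 CPM in HEK293 E7 libraries and at 41.0 and 73.7 CPM in controls (-1.59, SE 0.36, edgeR adjusted p = 0.235). FADS2, a desaturase of polyunsaturated fatty acids, was at 44.5 and 84.0 CPM in E7 and at 116.9 and 116.0 CPM in controls (-0.92, SE 0.33). Both E7 libraries lay below both controls in each case. NSDHL, a sterol dehydrogenase, was at 33.7 and 43.6 CPM in E7 and at 60.4 and 78.5 CPM in controls (-0.92, SE 0.25). IDI1 was at 93.3 and 139 CPM in E7 and at 167 and 218 CPM in controls (-0.80, SE 0.29). The groups did not overlap for these genes either, although libraries of the same group differed from each other. These genes were named for the largest changes, which favours such gaps between 2 and 2 libraries. The share of all genes without overlap was not counted.

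Libraries of the same HEK293 group also differed from each other. Between control clone 2 and control clone 1, the sterol arm had a median log2 difference of 0.35, positive in 15 of 17 members, and the fatty acid arm one of -0.28, positive in 1 of 10. Between E7 library 2 and library 1 all 17 sterol arm members were positive, with a median of 0.33, and so were 9 of 10 in the fatty acid arm, with a median of 0.21. Without control clone 1, edgeR called 12 of 31 members lower in E7 (ACAT2, PMVK, MVD, IDI1, FDPS, FDFT1, LSS, NSDHL, EBP, DHCR7, SCD and FADS2), where 52.5% of all genes were called. Without control clone 2 it called 4 of 31 (ACAT2, MVD, NSDHL and FASN), where 16.2% of all genes were called, and the sterol arm median was -0.02. Neither count exceeded its share over all genes, which takes in calls in either direction. All these members were lower, and the share of all genes called lower in these fits is not given here. Each fit leaves 1 control library, so nothing is drawn from the counts. Epithelial markers (3 of 8 genes listed) summed to 795 to 929 CPM in the E7 libraries of HEK293 and to 348 to 585 CPM in the controls, and their part in these values was not tested.

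**Figure D3:**
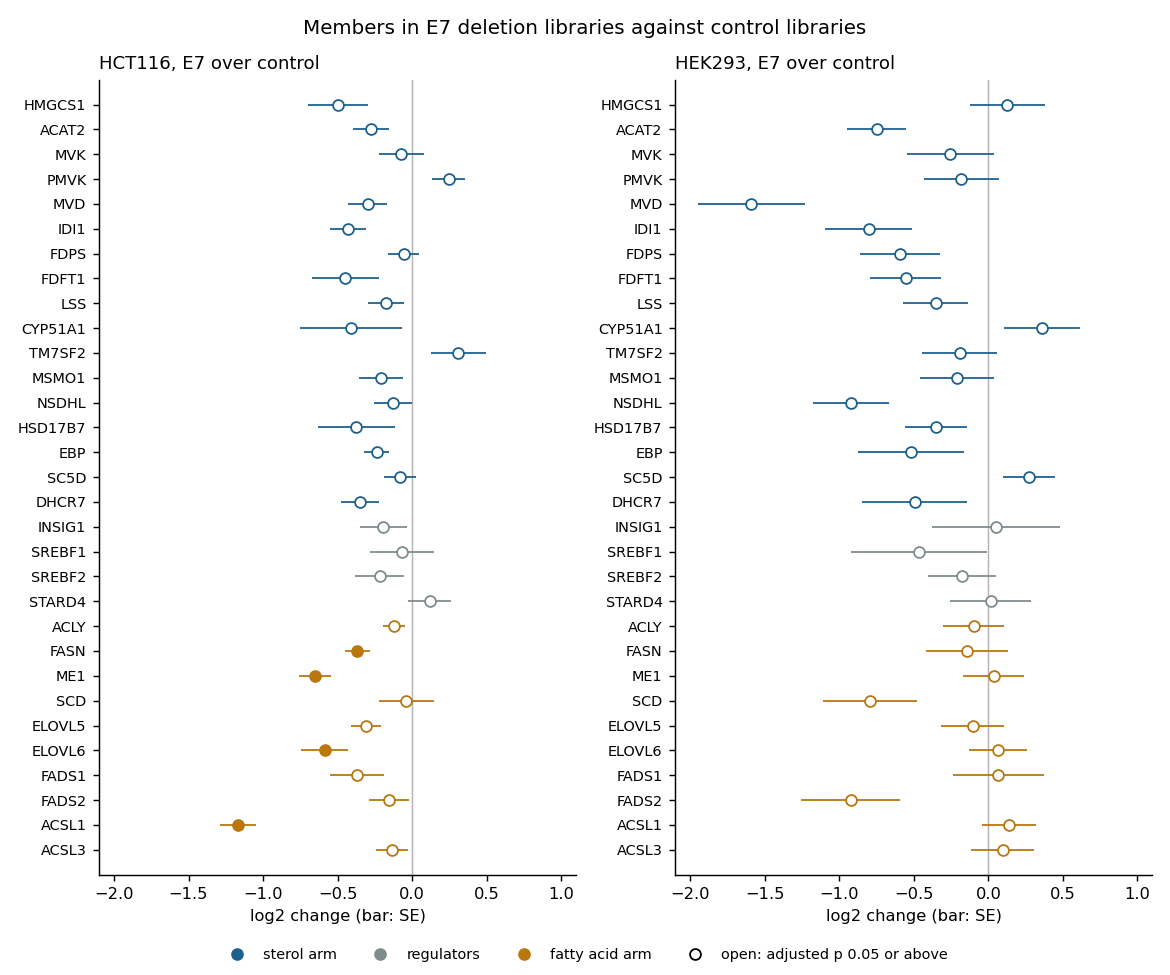
Log2 change of the 31 members in E7 libraries over control libraries, with SE as bars, in HCT116 (left panel) and HEK293 (right panel), coloured by arm. Filled points have an edgeR adjusted p under 0.05; these are ACSL1, ME1, ELOVL6 and FASN in HCT116, and no member in HEK293, where MVD lies lowest at -1.59.

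Whether the difference between E7 and control libraries varied with the line was tested as an interaction, HEK293 minus HCT116. ACSL1 was the one member called, at 1.32 (SE 0.19, edgeR adjusted p = 0.0144); its log2 change was 0.14 in HEK293, with 51.0 and 54.9 CPM in E7 and 49.9 and 42.0 CPM in controls, and -1.17 in HCT116. Of all genes tested, 1.45% were higher and 1.93% lower in this contrast. The median interaction was -0.16 in the sterol arm, -0.01 among regulators and 0.24 in the fatty acid arm. ACSL1 did not pass without HCT116 control clone 1 or 2 or without either E7 library of HEK293 (edgeR adjusted p 0.0512 to 0.0709, log2 values 1.26 to 1.39). Without HEK293 control clone 1, 10 of 31 members and 39.7% of all genes were called, and without control clone 2, 2 of 31 members and 17.6% of all genes, so neither count exceeded the share over all genes.

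Members of both arms and regulators differed between days of RNA extraction in the control clones of HCT116. A difference between the arms was not tested. On day B against day A, 17 of 31 members fell and none rose: 10 of 17 in the sterol arm, 3 of 4 regulators and 4 of 10 in the fatty acid arm. Over all genes tested, 18.9% rose and 20.6% fell. The median log2 change was -0.30 in the sterol arm, -0.59 among regulators and -0.14 in the fatty acid arm, against -0.02 over all genes. In 19 members, the level was lower on day B in each of the 4 clones, as in 26% of all genes. The mitochondrial share of gene counts was also lower on day B in each clone (4.81% to 5.01% on day B and 5.24% to 6.60% on day A), and its part in these differences was not tested.

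Among the regulators, SREBF2 was at 239.9, 271.5, 318 and 294 CPM in control clones 1 to 4 on day A, at 149.9, 148, 200 and 227 CPM on day B, and at 175, 187, 230.3 and 227.5 CPM on day C. Every clone was lower on days B and C than on day A, and SREBF2 fell by 0.60 on day B (SE 0.07, edgeR adjusted p = 6.89e-05). INSIG1 was at 96.6, 118.9, 121.5 and 93.1 CPM on day A, at 52.9, 47.1, 74.5 and 62.7 CPM on day B, and at 58.9, 63.4, 88.4 and 97.9 CPM on day C. It fell by 0.84 on day B (SE 0.13, edgeR adjusted p = 0.000224), and on day C clone 4 was above its day A level. STARD4 was at 54.5, 93.0, 71.1 and 69.3 CPM on day A, at 45.0, 48.5, 42.6 and 48.4 CPM on day B, and at 39.1, 48.0, 51.6 and 59.4 CPM on day C. All 4 clones were lower on both later days, and STARD4 fell by 0.58 on day B (SE 0.11, edgeR adjusted p = 0.000878). SREBF1 was not called between these days.

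In the sterol arm, TM7SF2 was at 20.9, 28.4, 29.6 and 26.7 CPM on day A, at 8.22, 10.7, 11.4 and 19.4 CPM on day B, and at 12.1, 13.6, 11.6 and 17.8 CPM on day C. Clone 4 was the highest on both later days but not on day A, and TM7SF2 fell by 1.09 on day B (SE 0.14, edgeR adjusted p = 9.97e-05). MSMO1 was at 73.9, 84.2, 88.6 and 98.4 CPM on day A, at 47.8, 44.5, 52.0 and 66.6 CPM on day B, and at 54.4, 58.6, 59.8 and 77.1 CPM on day C. The highest clone of day B lay below the lowest of day A, and MSMO1 fell by 0.68 (SE 0.07, edgeR adjusted p = 3.39e-05). How many of all genes had such a gap was not counted. HSD17B7, a sterol ketoreductase with near-identical copies that make its counts uncertain, fell by 0.75 (SE 0.12, edgeR adjusted p = 0.000255). LSS fell by 0.63 (SE 0.08), FDFT1 by 0.55 (SE 0.08) and IDI1 by 0.48 (SE 0.09), with edgeR adjusted p from 7.37e-05 to 0.000791. MVK, the mevalonate kinase, HMGCS1, SC5D, a sterol desaturase, and DHCR7, the reductase of a final step, fell by 0.29 to 0.44.

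In the fatty acid arm, SCD was at 877.5, 1193, 1469 and 1120.0 CPM on day A, at 651.5, 593, 759.6 and 886 CPM on day B, and at 732, 792, 1051 and 989 CPM on day C. Each clone was lowest on day B, and SCD fell by 0.64 there (SE 0.09, edgeR adjusted p = 0.000194). FADS1, ACSL1 and FADS2 fell by 0.47, 0.38 and 0.27, and FASN and ACLY, which makes cytosolic acetyl-CoA, were not called.

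**Figure D4:**
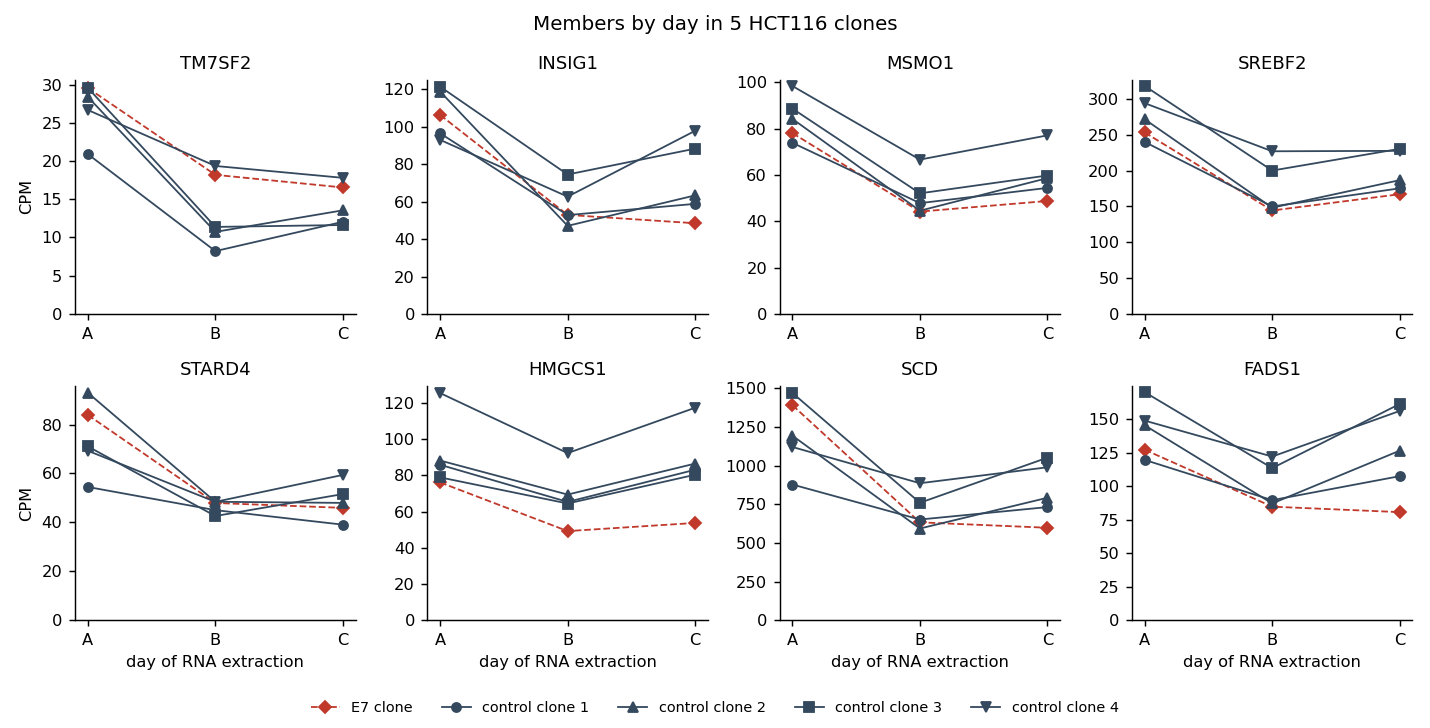
CPM of 8 members by day of RNA extraction (A, B, C) in the E7 clone (dashed line) and control clones 1 to 4 (solid lines, one marker shape per clone). TM7SF2, INSIG1, MSMO1, SREBF2, STARD4, HMGCS1, SCD and FADS1 are lower on day B than on day A in each of the 5 clones, for example SREBF2 at 148 to 227 CPM against 240 to 318 CPM in the control clones.

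On day C against day A, 10 members fell and none rose (5 of the sterol arm, 3 regulators and 2 of the fatty acid arm), while 15.6% of all genes rose and 17.4% fell. TM7SF2 fell by 0.92 (SE 0.14), LSS by 0.50 (SE 0.08), STARD4 by 0.50 (SE 0.11), HSD17B7 by 0.49 (SE 0.11), INSIG1 by 0.47 (SE 0.12) and MSMO1 by 0.44 (SE 0.07), with edgeR adjusted p from 0.000396 to 0.0101. SREBF2 fell by 0.43 (SE 0.07), FADS2 by 0.40 (SE 0.10), SCD by 0.35 (SE 0.09) and IDI1 by 0.27 (SE 0.09), with edgeR adjusted p up to 0.0248. The median was -0.19 in the sterol arm, -0.45 among regulators and 0.00 in the fatty acid arm. In 14 members the level was lower on day C in each of the 4 clones, as in 27.4% of all genes. These contrasts share the day A libraries with those of day B. Without control clone 2, 6 members and 13.1% of all genes were called, and INSIG1 (-0.33), STARD4 (-0.35), SCD (-0.28) and IDI1 (-0.23) did not pass (edgeR adjusted p 0.0567 to 0.160).

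On day C against day B most members were higher, but the test called none. With edgeR 0 of 31 passed, 13 had an unadjusted p under 0.05, and DESeq2 called 3 (HMGCS1, FDFT1 and FADS1); of all genes tested, 0.0346% were called. The log2 change was positive in 27 of 31 members, with a median of 0.13. FADS1 was at 107.5, 126.5, 161.3 and 156.1 CPM on day C and at 89.6, 87.2, 113.5 and 122.1 CPM on day B in clones 1 to 4, a log2 change of 0.41 (SE 0.07, edgeR adjusted p = 0.0827). HMGCS1 was at 83.2, 86.6, 80.4 and 117.4 CPM on day C and at 65.4, 69.5, 64.5 and 92.4 CPM on day B (0.32, SE 0.07, edgeR adjusted p = 0.0917). Each clone was higher on day C for both genes. INSIG1 and FDFT1 were at 0.37 and 0.36.

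Other genes of the pathways moved in the same contrasts. On day B against day A, 1 of 20 other sterol genes rose (TMEM97, 0.47) and 9 fell, among them ABCG1, which exports sterol (-1.23), INSIG2, a relative of INSIG1 (-0.65), and SQLE (-0.38). Of 24 other fatty acid genes 1 rose and 10 fell, with ACSS2, which activates acetate, at -0.73, IDH1 at -0.72, ACSL6 at -0.70 and LPIN1 at -0.61. Of 14 oxidation genes 1 rose and 7 fell, with PPARA at -0.75, ACAA2 at -0.67, DECR1 at -0.44 and ETFDH at -0.39. On day C against day A, 2 of 20 other sterol genes rose and 6 fell, 3 of 24 other fatty acid genes rose and 8 fell, and 7 of 14 oxidation genes fell with none rising.

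Day D could be compared with days A to C in control clones 1 and 2. FADS2 rose, at 23.7 and 22.2 CPM on day D against 14.8 to 20.8 CPM in the 6 earlier libraries (0.50, SE 0.10, edgeR adjusted p = 0.0192). ACSL1 fell, at 25.2 and 22.4 CPM on day D against 32.8 to 41.7 CPM (-0.51, SE 0.10, edgeR adjusted p = 0.0160). STARD4 was at 31.4 and 40.3 CPM on day D against 39.1 to 93.0 CPM and fell by 0.49 (SE 0.12, edgeR adjusted p = 0.0330). ELOVL6 fell by 0.37 and ELOVL5, an elongase of polyunsaturated fatty acids, by 0.33 (edgeR adjusted p = 0.0483 and 0.0402). No sterol arm member was called with edgeR, 5 had an unadjusted p under 0.05, and the arm's median was 0.14. Of all genes tested 3.12% rose and 3% fell. The count rested on single libraries: it was 13 without the day A library of clone 1 (with 16.1% of all genes called), 1 without its day C library, 2 without its day B or day D library, 5, 3 and 3 without the day A, B or C library of clone 2, and 1 without its day D library.

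The E7 clone went through the same days. On days A, B and C its SREBF2 was at 253, 144 and 167 CPM, its INSIG1 at 106, 52.9 and 48.5 CPM, its MSMO1 at 78.0, 44.2 and 48.7 CPM and its SCD at 1390.0, 633 and 598 CPM. All 4 genes were high on day A and low on both later days, as in the control clones except for INSIG1 in clone 4 on day C. SCD and INSIG1 were no higher on day C than on day B in E7, whereas each control clone was higher on day C.

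Whether the day response of E7 differed from that of the control clones was tested as an interaction. For day B with edgeR 0 of 31 members passed, 2 had an unadjusted p under 0.05, and DESeq2 called 0; for day C 0 passed, 8 had an unadjusted p under 0.05, and DESeq2 called 0. Of all genes tested, 0% were called in either. The interaction was negative in 25 of 31 members on day B, with a median of -0.13, and in 27 of 31 on day C, with a median of -0.22. On day C SCD was at -0.81 (SE 0.21, edgeR adjusted p = 0.711), INSIG1 at -0.61, FADS1 at -0.55 and ACSL3, an acyl-CoA synthetase, at -0.51. On day B DHCR7 was at -0.49, SCD at -0.46, ACSL1 at 0.44 and ACAT2 at -0.43. The 2 interactions share the day A libraries.

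Clones of the control group differed among themselves in these genes, with libraries of different days as the replicates of a clone. Control clone 3 had 5 members higher and 4 lower than the other 3 clones, while 4.4% of all genes were higher and 3.26% lower. SREBF1 was at 336, 318.5 and 313 CPM in clone 3 on days A, B and C, against 183 to 255.5 CPM in the other 3 clones, and rose by 0.54 (SE 0.07, edgeR adjusted p = 0.000243). SCD rose by 0.34 (SE 0.09), FADS1 by 0.31 (SE 0.07), SREBF2 by 0.27 (SE 0.07) and DHCR7 by 0.24 (SE 0.07), with edgeR adjusted p from 0.0115 to 0.0366. CYP51A1, the lanosterol demethylase, was at 5.71, 5.09 and 6.26 CPM in clone 3, against 8.27 to 13.98 CPM in the others. No library overlapped, and CYP51A1 fell by 0.79 (SE 0.11, edgeR adjusted p = 0.000318). How many of all genes separated clone 3 in this way was not counted. HSD17B7 fell by 0.51 (SE 0.12), ELOVL6 by 0.29 (SE 0.07) and HMGCS1 by 0.23 (SE 0.06), with edgeR adjusted p from 0.0128 to 0.0416. Without the libraries of day B 4 members and 4.87% of all genes were called, and without those of day C 2 members and 2.12% of all genes.

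In control clone 4, 5 of 17 sterol arm members rose and none fell, and 16 of 17 were positive, with a median of 0.24. Over all 31 members 6 rose and 1 fell, while 2.77% of all genes were higher and 2.53% lower. HMGCS1 was at 125.5, 92.4 and 117.4 CPM in clone 4 on days A, B and C, against 64.5 to 88.3 CPM in the other clones, and rose by 0.49 (SE 0.06, edgeR adjusted p = 0.000131). Every library of clone 4 lay above every library of the others for HMGCS1, and the share of all genes like this was not counted. FDFT1 was at 236, 188 and 238 CPM in clone 4 against 103 to 194 CPM, and rose by 0.56 (SE 0.08, edgeR adjusted p = 0.000416). CYP51A1 and HSD17B7 each rose by 0.57, MSMO1 by 0.36 and ELOVL6 by 0.32, and SREBF1 fell by 0.35 (edgeR adjusted p from 0.00265 to 0.0147). Of the other fatty acid genes, ACSL5, an acyl-CoA synthetase, was at -1.63 in clone 3 and at 0.86 in clone 4. Without the libraries of day A 15 members and 8.57% of all genes were called in clone 4, and without those of day C 1 member and 1.43% of all genes.

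Clones 1 and 2 stood closer to the rest. In clone 1 FADS1 was at 119.6, 89.6 and 107.5 CPM on days A, B and C, against 87.2 to 170.1 CPM in the other clones, and fell by 0.34 (SE 0.07, edgeR adjusted p = 0.0316), where 0.443% of all genes were higher and 0.511% lower. DESeq2 called 4 members in clone 1, and edgeR called 3, 2 and 0 without the libraries of day A, B or C. In clone 2, 0 members were called with edgeR, 8 had an unadjusted p under 0.05, DESeq2 called 1 and 1.26% of all genes were called; without the libraries of day A 3 members were called. FDFT1 (-0.32), MVD (-0.29), CYP51A1 (0.27) and DHCR7 (-0.21) were the largest differences of clone 2. The comparisons of the 4 clones share their libraries.

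The lines themselves were compared through their control clones. In HEK293 controls against HCT116 controls, the sterol arm had 6 members higher and 1 lower, the fatty acid arm 2 higher and 6 lower, and the regulators 1 higher and 2 lower. In all 9 of 31 members were higher and 9 lower, against 31.1% and 26% of all genes, so the number of calls was close to that of all genes. The sterol arm's 6 of 17 was near the same share, and a difference between the arms was not tested. Levels here are CPM over the 11887 genes listed in both lines, and line and day cannot be told apart.

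FADS2 was at 116.9 and 116.0 CPM in HEK293 control clones and at 17.7, 18.1, 20.9 and 19.2 CPM in HCT116 control clones 1 to 4, the largest difference, and was higher by 2.44 (SE 0.11, edgeR adjusted p = 5.05e-06). ACAT2 was at 134 and 137.0 CPM in HEK293 and at 35.7 to 43.7 CPM in HCT116 (1.61, SE 0.11). HMGCS1 was at 291 and 238 CPM in HEK293 and at 77.2 to 115.3 CPM in HCT116 (1.38, SE 0.17). INSIG1 was at 155 and 242 CPM in HEK293 and at 73.4 to 99.97 CPM in HCT116 (1.04, SE 0.21). In these genes both HEK293 clones lay above all 4 HCT116 clones, and the share of all genes that did so was not counted. NSDHL was at 1.01 (SE 0.15). LSS at 0.88, IDI1 at 0.75, SC5D at 0.59 and ACLY at 0.37 made up the other higher members.

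SREBF1 was at 45.1 and 75.6 CPM in HEK293 and at 218 to 335 CPM in HCT116, a log2 change of -2.29 (SE 0.30, edgeR adjusted p = 0.000601). SCD was at 444 and 457 CPM in HEK293 and at 784 to 1155 CPM in HCT116 (-1.28, SE 0.18). FADS1 was at 96.2 and 61.0 CPM in HEK293 and at 109 to 154 CPM in HCT116 (-0.96, SE 0.21). ELOVL6 was at 61.4 and 50.3 CPM in HEK293 and at 78.0 to 110.5 CPM in HCT116 (-0.92, SE 0.15). HEK293 lay below HCT116 in every clone for these genes, and the share of all genes that did so was not counted. FADS1 and FADS2, neighbours on chromosome 11, thus differed in opposite directions between the lines. The other lower members were ACSL3 (-0.84), SREBF2 (-0.84), MVD (-0.76), ME1 (-0.71) and FASN (-0.71).

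**Figure D5:**
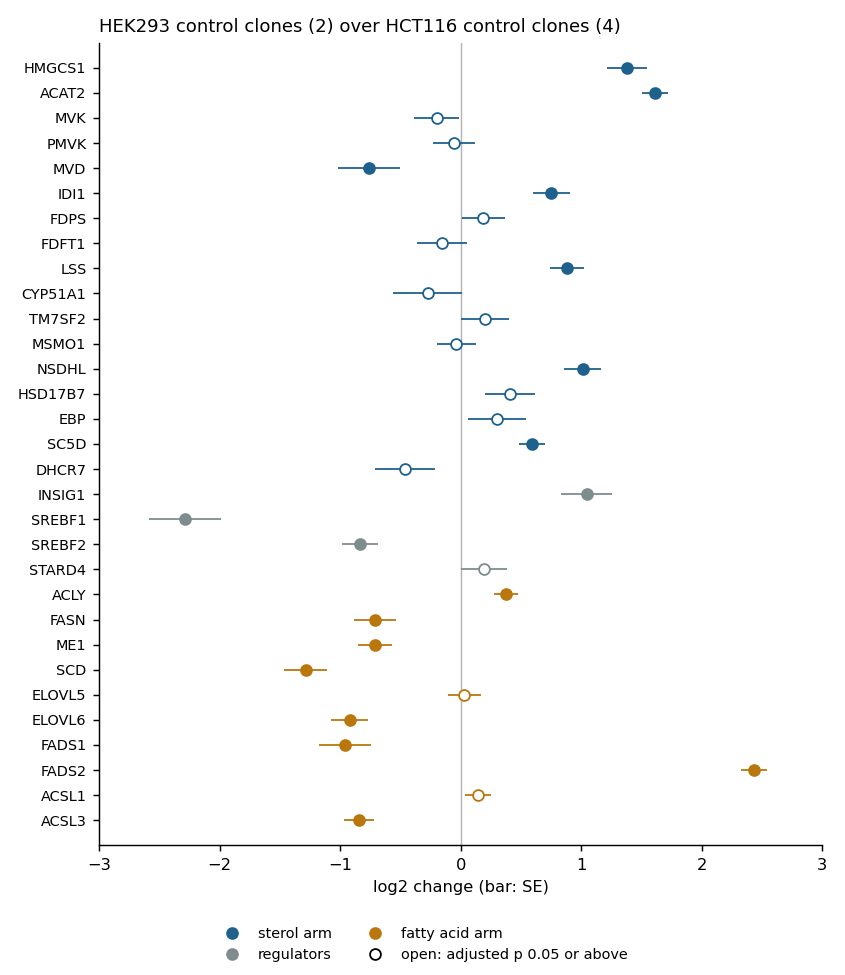
Log2 change of the 31 members in HEK293 control clones (2) over HCT116 control clones (4), with SE as bars, coloured by arm; filled points have an edgeR adjusted p under 0.05. FADS2 lies highest at 2.44 and SREBF1 lowest at -2.29, with 6 sterol arm members higher and 6 fatty acid arm members lower.

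The arm medians between lines depended on the HEK293 clone. The sterol arm was at 0.20 with both clones, at 0.44 without control clone 1 and at -0.16 without control clone 2. The fatty acid arm was at -0.71 with both, and at -0.93 and -0.49 without clone 1 and clone 2. With the HCT116 controls of day D in place of those of days A to C, 11 members were called, 8 higher and 3 lower, with 33.9% of all genes called. Of the other sterol genes 5 of 18 were higher and 1 lower in HEK293, and of the other fatty acid genes 4 of 23 were higher and 10 lower, among them MID1IP1 (-3.11) and MLXIPL (-2.55), which drive lipogenesis. Of 14 oxidation genes 4 were higher, with ACAA2 at 2.92, and 5 lower, with CPT1A, the gate of mitochondrial oxidation, at -3.01 and DECR1 at -2.87.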

How the data were processed

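The authors deposited raw gene counts, whole numbers with no normalization, in 1 file per library. Per the submitters' processing notes, TopHat2, HTSeq 0.6.1 and Partek 3 were among the tools used and hg19 was the build; whether counting used the strand is not stated. HTSeq's summary lines stayed out of library sizes and tests. In HCT116 days A to C they held 7.78% to 14.3% of reads outside genes and 12.3% to 13.8% aligned at several places. In HCT116 libraries of days A to C, 95.6% to 97.0% of gene counts fell on the genes that the HEK293 files list. Counts were tested with edgeR 4.0.16 in R 4.3.3 (TMM, filterByExpr with a minimum count of 10, quasi-likelihood F test, 2-sided, Benjamini-Hochberg over all genes tested); the fits were tested on simulated data. Counts of days A to C were summed per clone for E7 and for the comparison of lines; days were compared with the clone as a block, since the labels name the same 4 clones on each day (correlation of deviations between days B and A -0.29, 0.49, 0.30 and 0.45 in clones 1 to 4). DESeq2 1.42.0, other size factors, no filter, blocks and left-out libraries were alternatives. Only the alternative on libraries of days A and B with the clone as a random block used limma 3.58.1. The alternative for E7 in HCT116 with libraries as replicates had day as a term. It took the 3 libraries of 1 E7 clone as separate replicates. No pair of libraries was identical. Members, gene lists and tests were chosen with earlier results of these data known. Named were all called members, or the 10 with the largest change where more passed, or the 4 largest where none did. Chromatin samples were not used here.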

Additional observations from a re-analysis of the deposited data

Results flagged for a closer look

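NSDHL stood apart in 1 of 4 control clones of HCT116. Over days A to C control clone 4 was at 33.9 CPM and the other 3 clones at 27.8 to 28.1 CPM, so that the gap made up 0.943 of the whole range. One of 31 members was marked this way, and chance marks about 5% of such groups of 4.

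ACSL1 differed between lines in its response to loss of E7. The log2 interaction, HEK293 minus HCT116, was 1.32 (SE 0.19, edgeR adjusted p = 0.0144). All 3 E7 libraries of HCT116 lay below all 12 control libraries. Both E7 libraries of HEK293, at 51.0 and 54.9 CPM, lay above both controls, at 49.9 and 42.0 CPM. The share of all genes with such gaps was not counted. The change within HEK293 itself, 0.14, was not called. The call of the interaction was lost in 4 of 11 alternative fits. E7 in HCT116 was 1 clone, and the E7 libraries of HEK293 may be 1 clone. Clone and deletion cannot be told apart here.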

How the results depend on the processing

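Counts of called members, out of 31, moved as follows. For E7 in HCT116 the main count was 4; it was 10 with libraries as replicates (34.9% of all genes called), 0 against the 18qNE clones on days A and B (0.521%), and 2 to 5 with single control clones left out (8.37% to 17.5%). For E7 in HEK293 (main count 0), DESeq2 gave 1 (3.92%), the replicate block 3 (5.68%) and left-out libraries 0 to 12 (0.626% to 52.5%). For the interaction between lines (main 1), DESeq2 gave 3 (9.92%) and left-out clones or libraries 0 to 10 (0.296% to 39.7%). These shares take in calls in either direction, while every member called in the E7 fits within each line was lower. No conclusion about the members is drawn from counts near or under these shares. For day C against day B (main 0), DESeq2 gave 3, no filter 5 and left-out clones 0 to 2. For day C against day A (main 10), the fit with no replicate block gave 6 and left-out clones 6 to 12. For day D (main 5), no replicate block gave 2 and left-out libraries 1 to 13. The E7 day response on day C gave 1 with no filter. Clone 1 (main 1) had 4 with DESeq2, 6 with no filter, and 3, 2 and 0 without days A, B and C. Clone 2 (main 0) had 1, 2, and 3 without day A. Clone 3 (main 9) had 4 without day B and 2 without day C, and clone 4 (main 7) 15 without day A and 1 without day C. HEK293 against HCT116 (main 18) gave 11 with day D controls. For 18qNE and 18qE every alternative gave 0, the replicate block included. The replicate numbers were taken as names only in the main fits of 18qNE (correlations of same-numbered deviations -0.21, -0.42 and 0.18), 18qE (0.10) and HEK293 (0.38). The HEK293 value lay within the -0.29 to 0.49 of the HCT116 control clones between days B and A. Whether its numbers pair libraries cannot be told. The cause of these shifts was not tested, except that fewer libraries enter some fits. Among members called in a comparison, 518 alternative fits kept the call, 99 lost it and none of them turned its direction. Among those not called, 116 fits made a call in the same direction and 1 in the opposite one: EBP in HEK293 against HCT116 was called at -0.27 without HEK293 control clone 2 and at 0.30 with both clones. All 31 members analysed passed the count filter in every comparison, so low counts removed none. E7 in HCT116 rests on 1 clone. Of its 12 alternative fits, 5 lost the call of ELOVL6, 3 that of FASN, 1 that of ACSL1 and 1 that of ME1.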
